A study of Rattus norvegicus with 6 samples.

Results

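Solute carriers (SLC genes) encode membrane proteins that move sugars, amino acids, ions, metals, transmitters and metabolites across the plasma membrane or into organelles. Their transcripts were followed here in the whole brain of male SHR rats (SHR/OlaIpcvPrin, the spontaneously hypertensive rat) and male BNLx rats (BN-Lx/CubPrin), both inbred and untreated, with 3 rats of each strain. A locus of the study's transcriptome was included where a reference transcript in it bore a symbol made of Slc and a family number, leaving out the glutamate transporters Slc1a2 and Slc1a3. This gave 130 of 24744 loci, or 130 of the 8336 loci with any reference name. They carried 129 symbols, because Slc6a17 named 2 loci, and fell into 36 families. The age of the rats and the sharing of sequencing lanes by strain are not given in the sources used here.

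SLC families are numbered by sequence relationship, so a family number usually goes with a class of substrate. Family 2 holds the glucose transporters, family 6 the sodium-dependent transporters that clear GABA, glycine and other amino acids, family 25 the carriers of the inner mitochondrial membrane, families 30 and 39 the zinc exporters and importers, and family 38 the sodium-coupled neutral amino acid transporters. In brain these proteins end transmission at synapses, carry fuel across the blood-brain barrier, load synaptic vesicles and set the pH and chloride of neurons.

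Among autosomes, reference names stood on chromosomes 2 to 9 and 20 and were absent on the other 11, so SLC genes there were not analysed here. Chromosomes X and Y and the mitochondrial genome also carried names, and X held 7 of the Slc loci. Of the 14 transmitter transporters listed for description, 4 were named, among them Slc6a11, Slc6a9 and Slc5a7, and of 13 listed ion, energy and barrier transporters, 7 were named. In 24 loci the assembly had joined the Slc gene with other named genes, and 106 held Slc names alone. Transcripts without a reference name also count toward a locus: the median locus had 82.3% of its counts in transcripts that carried the Slc name, and 39 of 130 loci had less than 50%. Total expected counts were 21745966 to 41333078 in SHR and 11747048 to 32826625 in BNLx libraries. A locus value gives the level of its transcribed region, not of the annotated gene alone.

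Levels between genes were compared as TPM, which is scaled to transcript length. The 130 loci together took 0.948% to 1.09% of the counts of each library, and no locus was at 0 in any library. Transcripts that carry the name Slc10a5, however, had 0 counts in every library. Mean TPM over the 6 libraries was at least 10 in 99 of the 130 loci, at least 100 in 17 and at least 300 in 2. The mitochondrial carriers had the largest sum of mean TPM, 1964, over 21 loci, which is also the most loci of any family. Slc25a3, the mitochondrial phosphate carrier, led at 567 TPM in a locus that also holds Tmpo, and Slc25a5, an ADP/ATP translocase, followed at 431 TPM. The 10 family 6 loci summed to 929.6 TPM. Among them, Slc6a11 (GAT-3 of astrocytes) was at 102 TPM and Slc6a9 (glycine transporter GlyT1) at 86.8 TPM. Slc5a7, the choline transporter of cholinergic neurons, was at 5.66 TPM. The loci of the glucose transporters Slc2a1 (GLUT1, of barrier endothelium and glia) and Slc2a3 (GLUT3, of neurons) were at 86.2 and 85.7 TPM. Named transcripts held 99.9% of the Slc2a1 locus and 20.87% of the Slc2a3 locus, which also holds LOC100909595. The plot of mean TPM by family shows this order.

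**Figure D1:**
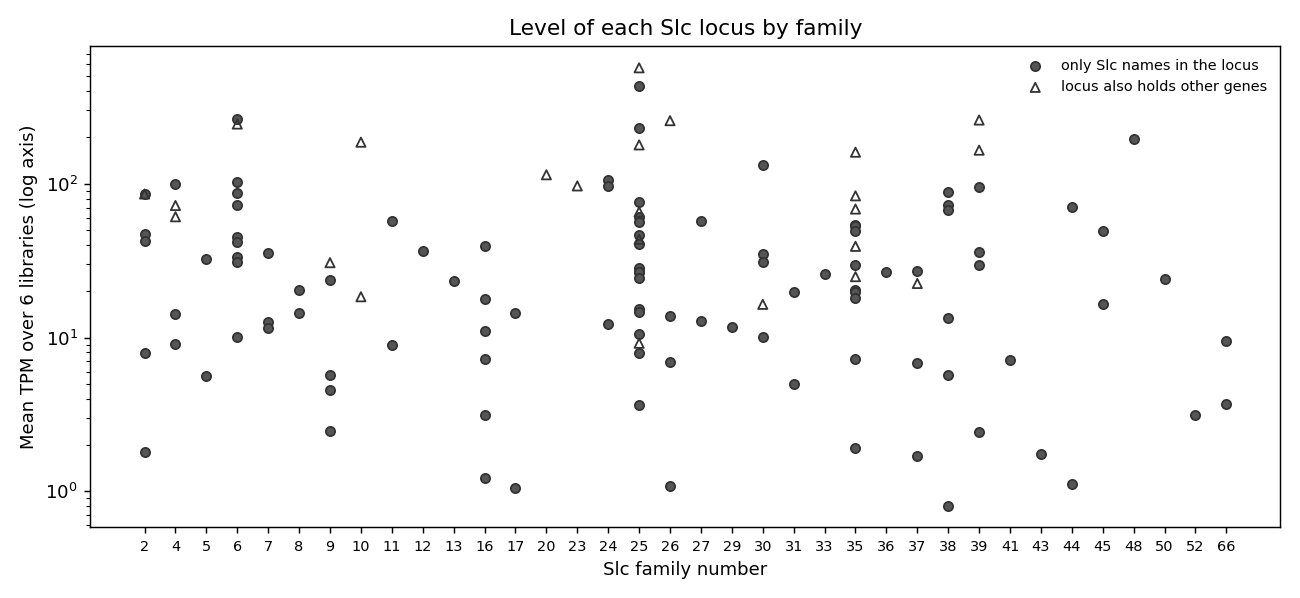
Mean TPM over all 6 libraries (log axis) of each of the 130 Slc loci, placed by family number. Filled circles are loci with Slc names alone and open triangles are loci joined with other genes. Slc25a3 lies highest at 567 TPM and Slc38a4 lowest at 0.808 TPM.

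In other families with at least 3 tested loci, the highest mean TPM belonged to Slc4a10, a sodium-driven bicarbonate transporter of neurons (100.1), Slc7a14, a lysosomal amino acid transporter (35.2), and Slc16a1, the monocarboxylate transporter MCT1 (39.2). The same position was held by Slc24a2, a potassium-dependent sodium-calcium exchanger (106), Slc30a3, which loads zinc into synaptic vesicles (133), Slc37a3 (27.04) and Slc38a1 (87.9). The Slc39a3, Slc26a10 and Slc35a2 loci, at 259, 257 and 160.3 TPM, led families 39, 26 and 35 as loci joined with other genes. Transcripts carrying the Slc name held 4.69% of the Slc39a3 locus, 0.54% of the Slc26a10 locus and 1.93% of the Slc35a2 locus. They held 50.1% of the Slc4a10 locus, 42.7% of Slc24a2 and 55.5% of Slc7a14. For Slc16a1, Slc30a3, Slc37a3 and Slc38a1 this share was 88.9 to 100%.

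Strain differences were tested on expected counts with edgeR's quasi-likelihood test (two-sided, n = 3 per strain). Values per library are counts scaled by library size with TMM (CPM), and a log2 fold change is SHR over BNLx. A locus was tested where at least 2 of 3 libraries of a strain had 50 counts. This left 125 of the 130 loci and left out the second Slc6a17 locus, Slc17a9, Slc35f2, Slc38a4 and Slc44a4. A single one of the 125 loci, Slc11a1, passed an adjusted p of 0.05, against 1.02% of all 14471 loci tested. It was higher in SHR, against 0.504% of all loci called higher and 0.511% called lower, and no Slc locus was called lower (4 of 125 were lower at an unadjusted p of 0.05, and DESeq2 called 1). The median log2 fold change of the 125 was -0.02, and the middle 50% lay between -0.17 and 0.15. For all loci these values were 0.00, -0.17 and 0.19. Fold changes were above 0 in 57 and below 0 in 68 of the 125. An unadjusted p of 0.05 or less was found for 15 of 125 loci (12%), against 10.2% of all loci. The strains did not overlap in 14 loci with SHR above (11.2%), against 8.97% of all loci, and in 9 with SHR below (7.20%), against 8.49%. These shares of the Slc loci were near those of the transcriptome. The plot of fold changes by family shows most loci close to 0.

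**Figure D2:**
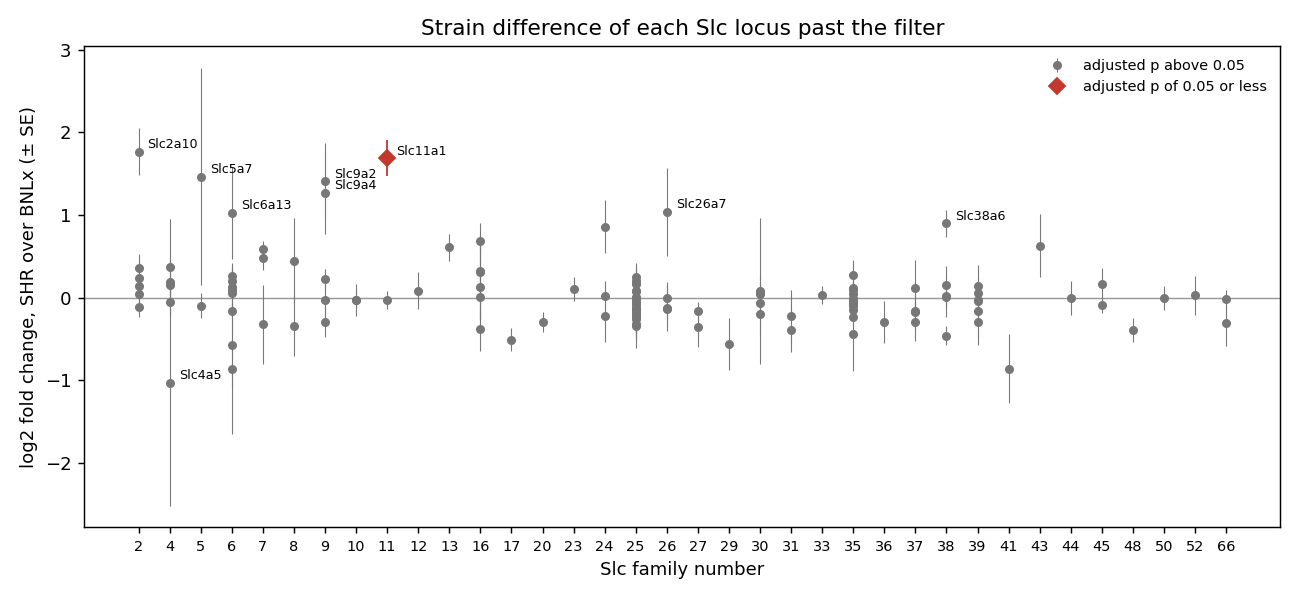
Log2 fold change of SHR over BNLx with its standard error for the 125 tested Slc loci, by family number. The red diamond is Slc11a1, at 1.69. The grey points did not pass, and the longest bar belongs to Slc4a5, at -1.03 with a standard error of 1.49.

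Slc11a1 encodes NRAMP1, a proton-coupled exporter of iron and manganese from the phagosome of macrophages, and lies on chromosome 9 (81655629 to 81666706 of rn6, plus strand). It had 10.5, 7.96 and 7.65 CPM in SHR, against 2.88, 2.44 and 2.77 CPM in BNLx. Every SHR library was above every BNLx library, and the lowest SHR value exceeded the highest BNLx value by more than the spread within either strain. The means were 8.71 ± 1.57 CPM in SHR and 2.70 ± 0.229 CPM in BNLx (SD, n = 3 each). With edgeR the log2 fold change was 1.69, its standard error 0.22 and the adjusted p 0.0257. It rests on 453, 168 and 167 counts in SHR libraries and 93, 28 and 36 counts in BNLx libraries. Whether such a locus is transcribed more per cell or in more cells cannot be told apart in whole brain. Of the 6 listed genes of microglia and macrophages, 3 were named (Aif1, Cx3cr1 and C1qa) and none passed. Their summed level was 93.2, 74.4 and 67.4 CPM in SHR, against 67.4, 66.9 and 61.2 CPM in BNLx. SHR replicate 1 was the highest and SHR replicate 3 was level with BNLx replicate 1. Of the 3 genes, Cx3cr1 was higher in every SHR library (37.5, 41.8 and 34.6 CPM, against 30.5, 33.5 and 29.7 CPM in BNLx). Aif1 and C1qa overlapped between strains. The part of these cells in the Slc11a1 result was not tested. Over 16 alternatives the adjusted p of Slc11a1 ran from 8.99e-08 with DESeq2 to 0.167 with the replicate number as a block, and 9 alternatives kept the call. Leaving out any 1 library other than SHR replicate 1 ended it (adjusted p from 0.0592 without BNLx replicate 3 to 0.143 without BNLx replicate 1, with edgeR), while log2 fold changes stayed between 1.53 and 1.77. Counting the named isoforms alone, which held 68.0% of the locus, also ended it (edgeR, adjusted p = 0.12).

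Its paralog Slc11a2 (DMT1, the ferrous iron importer of most cells) had 28.97, 28.4 and 27.8 CPM in SHR, against 28.3, 26.8 and 31.4 CPM in BNLx, with a log2 fold change of -0.02 and overlapping strains. The 2 members of the family thus differed in the size of their strain difference, and the difference between them was not tested.

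Other transporters separated the strains without passing the adjustment. Slc7a11, the light chain xCT of the cystine-glutamate exchanger, had 63.6, 63.2 and 56.4 CPM in SHR, against 40.8, 38.1 and 43.3 CPM in BNLx, a log2 fold change of 0.58 (adjusted p = 0.0819 from edgeR). Slc13a3, a sodium-coupled carrier of dicarboxylates, had 45.9, 38.7 and 35.2 CPM in SHR, against 24.8, 23.1 and 30.6 CPM in BNLx. In both loci the lowest SHR value was above the highest BNLx value. Slc2a10, a glucose transporter family member (GLUT10), had the largest fold change of any Slc locus at low counts, with 6.45, 4.69 and 3.67 CPM in SHR, against 1.49, 1.39 and 1.46 CPM in BNLx (log2 fold change 1.77, adjusted p = 0.0606 from edgeR). Slc38a2, the stress-inducible neutral amino acid transporter SNAT2, was the opposite case, with 132, 130.2 and 127 CPM in SHR, against 166, 169.5 and 198 CPM in BNLx and a log2 fold change of -0.46 (adjusted p = 0.217 from edgeR). All SHR values of Slc38a2 lay below all BNLx values and close to each other. DESeq2 called 7 of 125 loci, among them these 4, Slc38a6 and Slc11a1, against 3.75% of all loci. Slc2a10, Slc7a11 and Slc13a3 were chosen for description after their values were seen.

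**Figure D3:**
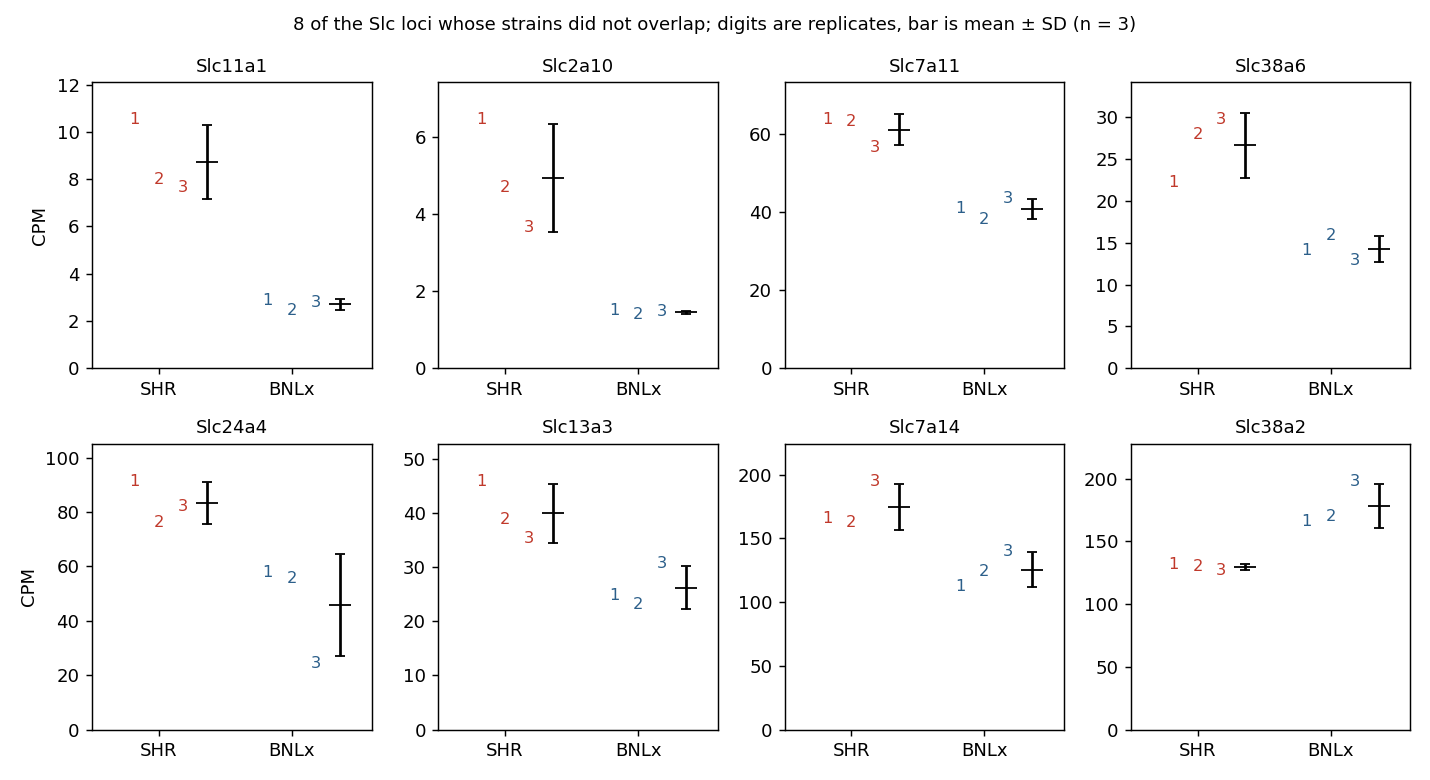
CPM of 8 of the 23 Slc loci whose strains did not overlap, in SHR (left, red) and BNLx (right, blue), with axes starting at 0. Digits are replicate numbers, and the black mark is the mean ± SD of 3 libraries. SHR is higher in 7 panels, and in Slc38a2 it is lower, at 129.5 ± 2.68 CPM in SHR and 178 ± 17.6 CPM in BNLx (SD, n = 3 each). The panels were picked for display: among all 23 loci, SHR was above in 14 and below in 9.

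Among loci without a call, the largest changes with separate strains and at least 100 counts on average included Slc9a2, Slc9a4, Slc38a6 and Slc24a4 with SHR above. Slc9a2 and Slc9a4, sodium-proton exchangers, had log2 fold changes of 1.41 and 1.27. Both varied within SHR. Slc9a2 had 12.98, 13.2 and 27.3 CPM in SHR, against 8.95, 7.76 and 3.31 CPM in BNLx. Slc9a4 had 4.16, 3.41 and 11.1 CPM in SHR, against 2.39, 2.35 and 3.00 CPM in BNLx. SHR replicate 3 was the highest library for both, and both lie on chromosome 9. Slc38a6, a neutral amino acid transporter family member, had 22.2, 27.96 and 29.7 CPM in SHR, against 14.1, 15.9 and 12.9 CPM in BNLx (adjusted p = 0.0865 from edgeR). Transcripts that carry the gene's name held 1.89% of the Slc38a6 locus, 2.59% of the Slc9a4 locus and 3.66% of the Slc24a4 locus, so those differences are of transcripts assembled in the region. Slc24a4, a potassium-dependent sodium-calcium exchanger by name, had 91.4, 76.3 and 82.2 CPM in SHR, against 57.7, 55.5 and 24.2 CPM in BNLx, with BNLx replicate 3 lowest. Slc9a2 had 65.02% of its counts in named transcripts. With SHR below, the 5 loci were Slc41a3, a magnesium transporter family member (log2 fold change -0.86), Slc17a5, the lysosomal sialic acid exporter sialin (-0.51), Slc38a2 (-0.46), Slc48a1, an endosomal heme transporter (-0.39), and Slc25a34, a mitochondrial carrier (-0.32). Slc17a5 had 14, 16.7 and 16.6 CPM in SHR, against 20.7, 24.4 and 22.2 CPM in BNLx. The largest of the 5, in Slc41a3, rested on 1 library. Slc41a3 had 5.43, 5.26 and 3.80 CPM in SHR, against 5.58, 6.19 and 14.6 CPM in BNLx, and BNLx replicate 3 was far above the rest.

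In the 6 families with at least 6 tested loci, median log2 fold changes lay between -0.12 and 0.23. Families with fewer loci ranged wider, such as family 7, the amino acid transporters with Slc7a11 and Slc7a14, at 0.47 over 3 loci. In family 25, 15 of 21 mitochondrial carriers had a log2 fold change below 0, with a median of -0.12 and a range from -0.35 to 0.25, and none passed. In family 35, the nucleotide sugar transporters, 9 of 13 were below 0 with a median of -0.05. In family 2, 5 of 6 hexose transporters were above 0 with a median of 0.19, and in family 16, 5 of 6 monocarboxylate transporters with a median of 0.23. The median over all loci tested was 0.00. Without BNLx replicate 3, 4 of 6 were above 0 in family 2 (median 0.10) and 2 of 6 in family 16 (median -0.05). With limma on log2(TPM + 1), 10 of 21 mitochondrial carriers and 5 of 13 family 35 loci were below 0. The median of all loci was 0.07 in that fit. The medians of families 25 and 35, at 0.006 and 0.034, stayed below it.

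Isoforms were tested separately, and the calls came from few Slc loci. Of the 551 transcripts of the Slc loci, 319 passed the filter. Called isoforms numbered 7 of the 319 at an unadjusted p of 0.001, against 1.00% of all 32348 isoforms, and 5 of them had an adjusted p of 0.05 or less, against 0.532%. Higher in SHR were 5, against 0.476% of all isoforms, and lower were 2, against 0.526%. Of the 7, 5 belonged to Slc6a15, and the others to the Slc39a3 locus and to Slc35f1. Differential usage asks whether the isoforms of a locus changed by unequal amounts. It was called in 2 of 79 Slc loci (2.53%), Slc6a15 and Slc39a3, against 4.37% of all 7742 loci. With DESeq2, 18 of 319 isoforms passed, against 3.60% of all, and with limma's voom weights 3 of 79 loci differed in usage, against 2.22%.

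Slc6a15 encodes a sodium-dependent transporter of branched-chain amino acids and proline found in neurons. The locus as a whole had 69.8, 75.3 and 79.6 CPM in SHR, against 71.5, 75.8 and 57.9 CPM in BNLx, a log2 fold change of 0.13, and did not pass. Its transcripts fell into 3 structures that shared their 3′ ends. One, without a reference name, lacked 20 bases (chromosome 7, 45328263 to 45328282 of rn6) inside what the named structure has as its first exon (45328162 to 45328564). The structure with this gap had 61.5, 70.0 and 74.0 CPM in SHR, against 0, 0 and 0 CPM in BNLx. The named structure without the gap had 8.52, 5.72 and 5.80 CPM in SHR, against 73.1, 75.7 and 59.3 CPM in BNLx. The gapped structure thus held 85.9 to 92.7% of Slc6a15 counts in SHR and 0% in BNLx. A structure with another gap of 36 bases nearby had 1.6 CPM in SHR replicate 1 and 0 in the other libraries.

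Both aptardi 3′ ends of Slc6a15 showed the exchange in tested isoforms. The aptardi isoform that ends 451 bases short of the original end (STRG.27461.1.1) had 45.2, 52.4 and 55.4 CPM in SHR, against 0 in every BNLx library, which is at least 258-fold higher when 3 counts are set for each BNLx library (edgeR, adjusted p = 0.0125). Its counterpart without the gap, STRG.27461.3.1, fell to 4.63 ± 1.05 CPM in SHR, against 46.7 ± 2.84 CPM in BNLx (SD, n = 3 each). With edgeR its log2 fold change was -3.33, with a standard error of 0.22 and an adjusted p of 0.0125. The pair of isoforms ending 251 bases short moved likewise. STRG.27461.1.2 was at least 62.0-fold higher in SHR (edgeR, adjusted p = 0.0251), and STRG.27461.3.2 had a log2 fold change of -3.83 (adjusted p = 0.0302 from edgeR). The original end with the gap, STRG.27461.1, had 3.19 to 6.80 CPM in SHR, against 0 in BNLx (unadjusted p = 0.000499 from edgeR), and was not called without any 1 of the SHR libraries. Summed over structures, the shares of the 3′ ends differed less, and that difference was not tested. The end 451 bases short took 73.9 ± 0.98% of counts in SHR and 67.8 ± 6.40% in BNLx, the end 251 bases short took 18.1 ± 2.34% in SHR and 27.1 ± 6.83% in BNLx, and the original end took 7.99 ± 2.89% in SHR and 5.18 ± 0.73% in BNLx (SD, n = 3 each).

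Slc39a3, the zinc importer ZIP3, lies in a locus joined with Diras1 and Sgta. A structure without a reference name (STRG.26507.3) lacked 102 bases (chromosome 7, 11552153 to 11552254 of rn6) inside the last exon (11550175 to 11553370) of the named structure (STRG.26507.4). It had 40.5, 35.4 and 32.1 CPM in SHR, against 0 in every BNLx library, a rise of at least 182-fold (edgeR, adjusted p = 0.0133). With the replicate block STRG.26507.3 was not called (edgeR, unadjusted p = 0.00388). Without any 1 SHR library it was still called, with adjusted p between 0.0548 and 0.0845 (edgeR). The named structure had 0, 0 and 0.74 CPM in SHR, against 35.4, 34.6 and 30.4 CPM in BNLx, and did not pass (unadjusted p = 0.0044 from edgeR). The gapped structure took 99.3 ± 1.26% of the pair in SHR and 0% in BNLx (SD, n = 3 each). Added together the pair gave 36.3 ± 3.93 CPM in SHR and 33.5 ± 2.70 CPM in BNLx, and the strains overlapped in this sum. A sum over named isoforms alone would put the log2 fold change at -7.26 for Slc39a3 and -3.37 for Slc6a15, against -0.16 and 0.13 for the locus totals. Counted that way, 1 of 113 Slc loci passed, against 1.02% of all loci, and that locus was Slc6a15.

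These gaps are short beside other introns of the transcriptome. The median intron of the original transcripts was 1441 bases, 34 of 180618 were of 20 bases or less, and 5.95% were of 102 bases or less. The reads of each strain had been aligned to a genome of that strain made from rn6, while the coordinates are those of rn6, and the sequence inside the gaps was not examined. Of 35 pairs of Slc structures in 20 loci that differed by a single gap within an exon, 4 had a gap of 102 bases or less. Slc2a8, a glucose transporter of intracellular membranes named here after its values were seen, has another of these, a gap of 74 bases. Its share in the pair was 58.8, 30.1 and 72.5% in SHR, against 55.7, 24.8 and 52.5% in BNLx, and the strains overlapped.

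Slc35f1, a family 35 member whose substrate is not settled, had a single called isoform and no gap. STRG.56566.1 begins with an exon 485770 bases upstream of the next one on chromosome 20 and has 8 exons, against 7 in the named structure. It had 73.1, 85.0 and 74.1 CPM in SHR, against 33.8, 32.9 and 41.8 CPM in BNLx, with a log2 fold change of 1.10 and a standard error of 0.16 (edgeR, unadjusted p = 0.000473, adjusted p = 0.0682). The named structure had 58.3, 18.3 and 25.5 CPM in SHR, against 56.2, 75.3 and 36.3 CPM in BNLx, with overlap. The upstream exon was therefore on 70.8 ± 13.7% of counts in SHR and 40.5 ± 11.8% in BNLx (SD, n = 3 each), with all 3 SHR shares above the BNLx shares, the lowest at 55.6% in SHR and the highest at 53.5% in BNLx. Differential usage of the locus did not pass (adjusted p = 0.143 from edgeR), and its isoform call was lost without any 1 library other than BNLx replicate 3.

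**Figure D4:**
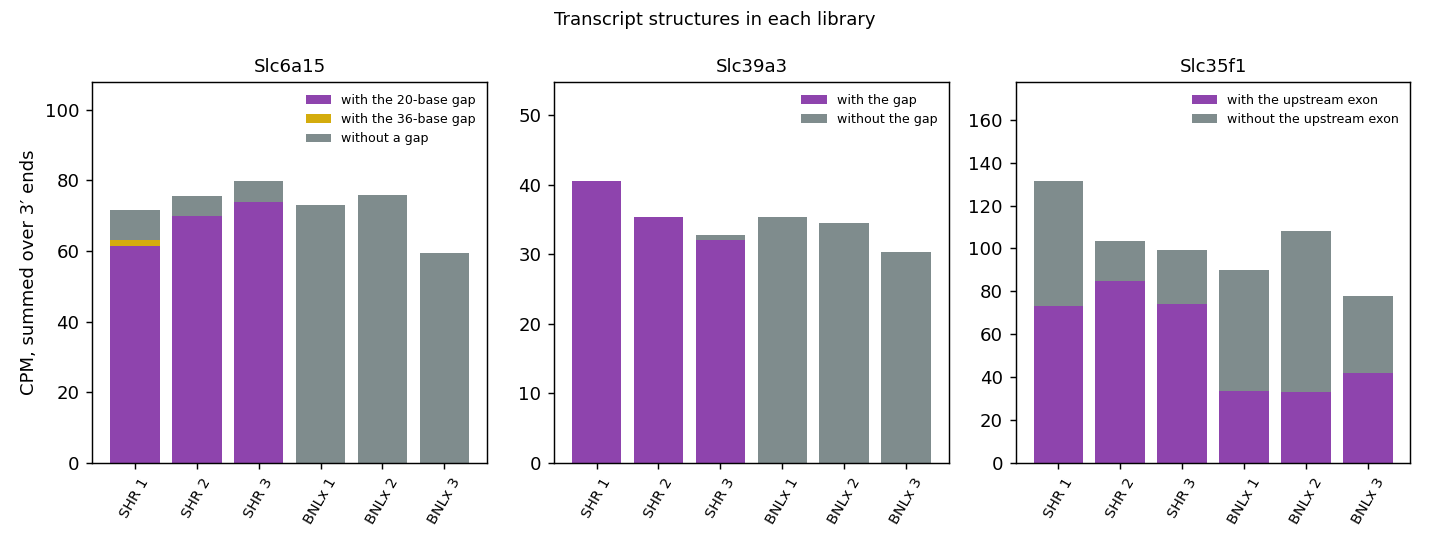
CPM of transcript structures, summed over their 3′ ends and stacked, for Slc6a15, Slc39a3 (the gap pair alone) and Slc35f1 in each of the 3 SHR (left) and 3 BNLx (right) libraries. The gapped structures of Slc6a15 and Slc39a3 fill 61.5 to 74.0 and 32.1 to 40.5 CPM of the SHR bars and are at 0 in BNLx, while the bar heights are similar.

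Other loci differed in isoform shares without passing in edgeR. Slc25a26 and Slc5a6 were picked after their values were seen. In Slc25a26, the mitochondrial carrier of S-adenosylmethionine, the unnamed isoform STRG.18011.3 had 7.31, 7.91 and 6.94 CPM in SHR, against 14.8, 13.8 and 12.1 CPM in BNLx. The named isoform STRG.18011.1 had 6.71, 6.00 and 5.33 CPM in SHR, against 5.61, 5.14 and 4.34 CPM in BNLx. The unnamed isoform was lower in every SHR library (unadjusted p = 0.00399 from edgeR and 1.78e-05 from DESeq2), and the named one overlapped. In Slc5a6, the sodium-dependent multivitamin transporter for biotin and pantothenate, STRG.23732.2 held 37.5, 25.1 and 31.2% of counts in SHR, against 74.2, 65.2 and 81.4% in BNLx. Its level was lower in SHR (unadjusted p = 0.00588 from edgeR and 0.000215 from DESeq2). Another named isoform, STRG.23732.1, had 26.7, 28.1 and 26.2 CPM in SHR, against 0, 7.75 and 9.71 CPM in BNLx. Its aptardi partner STRG.23732.1.1, which ends 258 bases further on, had 0.643, 0 and 0.965 CPM in SHR, against 10.6, 4.87 and 0 CPM in BNLx, and overlapped. The locus total overlapped, and usage of the locus did not pass (adjusted p = 0.404 from edgeR). In Slc44a1, a choline transporter, the aptardi isoform that ends 147 bases short had 23.1, 29.4 and 29.9 CPM in SHR, against 45.8, 39.8 and 55.4 CPM in BNLx (log2 fold change -0.78, unadjusted p = 0.00736 from edgeR and 0.000588 from DESeq2), while the locus total overlapped between strains.

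The 3′ ends added by aptardi were common in these loci. They gave 151 of the 551 transcripts, in 55 loci, with 50 shorter than the original transcript by a median of 416.5 bases and 101 longer by a median of 969 bases. Of the 319 isoforms past the filter, 82 were aptardi isoforms. In the 49 loci where such an isoform could be set against others, the aptardi isoforms held a median of 54.7 to 64.3% of counts in SHR libraries and 56.9 to 60.7% in BNLx libraries. Of the 7 called isoforms, 4 were aptardi isoforms, all of Slc6a15.

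Several transporters differed more between rats of 1 strain than between the strains. SHR replicate 1 and BNLx replicate 3 were the libraries least like the rest of their strain. SHR replicate 1 was the farthest of its strain for 92 of 125 Slc loci, against 70.9% of all loci, and BNLx replicate 3 for 89, against 63.9%. The highest library was over 2-fold above the lowest in 15 of 125 loci in SHR, against 12.6% of all loci, and in 21 in BNLx, against 16.3%. Slc30a3 (ZnT3), which marks zinc-rich glutamatergic terminals of the forebrain, had 36.05, 147 and 167 CPM in SHR, against 157, 157 and 17.1 CPM in BNLx. Slc39a10, a zinc importer, had 119, 269.7 and 249 CPM in SHR, against 276, 263 and 114 CPM in BNLx. The Slc16a7 locus, of the monocarboxylate transporter MCT2 but with 1.69% of its counts in named transcripts, had 24.8, 76.6 and 72.4 CPM in SHR, against 54.99, 65.03 and 18.6 CPM in BNLx. In these 3 of 125 loci, both libraries were at least 2-fold below all others, against 1.59% of all loci. Slc5a7 was the reverse, with 49.6, 2.94 and 2.02 CPM in SHR, against 3.66, 2.88 and 13.5 CPM in BNLx, and was the 1 Slc locus where both libraries were at least 2-fold above all others, against 0.615%.

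**Figure D5:**
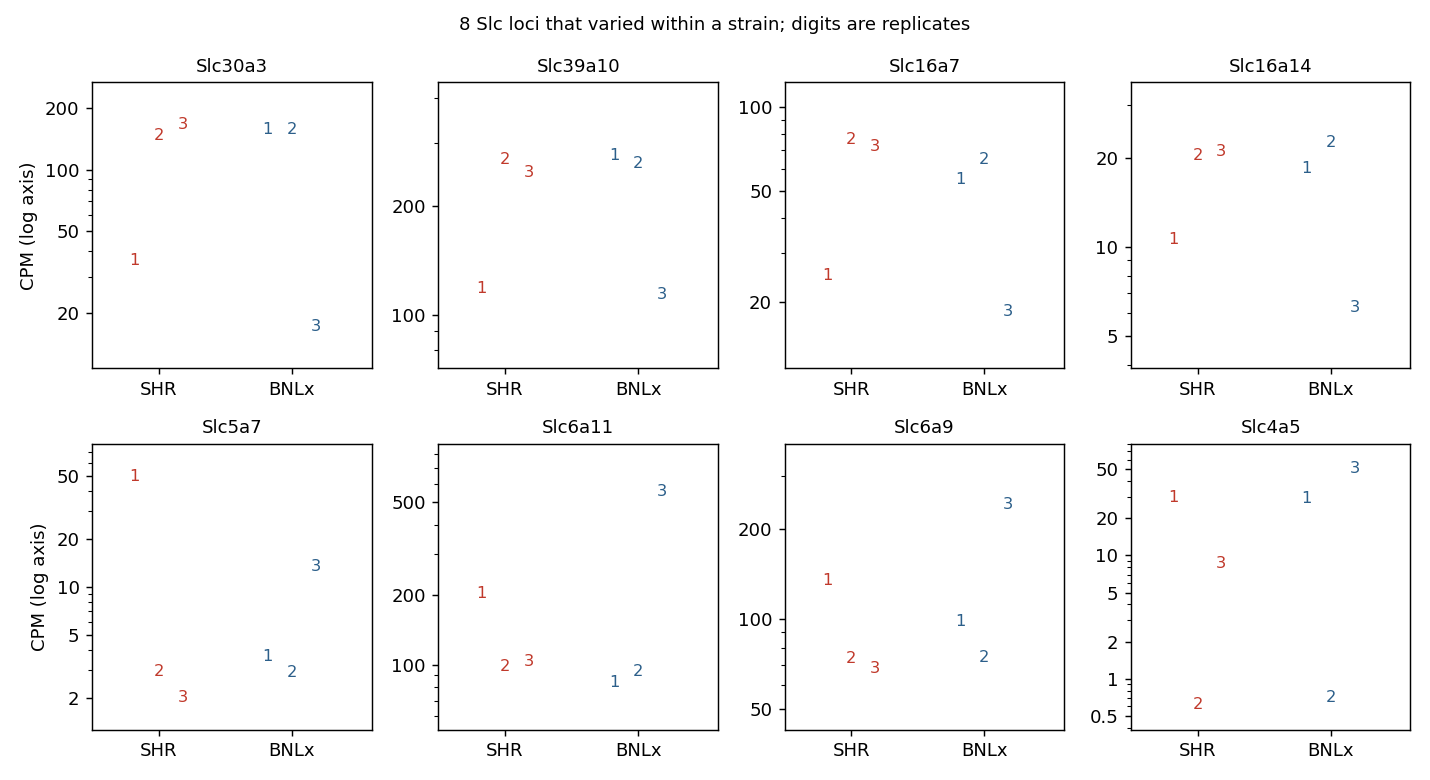
CPM (log axis, a range of its own in each panel) of 8 Slc loci that varied within a strain, in SHR (left, red) and BNLx (right, blue). Digits are replicate numbers. SHR replicate 1 and BNLx replicate 3 lie lowest for Slc30a3, Slc39a10, Slc16a7 and Slc16a14 and highest for Slc5a7, Slc6a11, Slc6a9 and Slc4a5, where Slc5a7 is at 49.6 and 13.5 CPM.

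GABA and glycine transporters were high in these libraries too. Slc6a11 had 202, 98.6 and 104 CPM in SHR, against 84.3, 93.3 and 556 CPM in BNLx, and Slc6a9, known from the brainstem and spinal cord as well as forebrain glia, had 134, 73.4 and 68.1 CPM in SHR, against 97.8, 74.01 and 240.2 CPM in BNLx. BNLx replicate 3 was the highest and SHR replicate 1 the second highest for both. Some listed markers moved with these libraries and others did not. Of the 3 neuronal genes, Snap25 and Syt1 were lowest in SHR replicate 1 and BNLx replicate 3 within their strains, while Stmn2 was highest in SHR replicate 1. The neuronal sum was 2293, 3420.3 and 3448 CPM in SHR, against 3801, 4512 and 2607 CPM in BNLx. The sum of the 3 astrocyte genes Slc1a2, Slc1a3 and S100b was 3708, 5166 and 4518 CPM in SHR, against 4138, 4002 and 3064 CPM in BNLx, lowest in the same libraries. Within SHR, S100b was highest in replicate 1. Mog, a myelin gene of oligodendrocytes, had 129, 81.2 and 57.2 CPM in SHR, against 184, 122 and 216 CPM in BNLx. Within each strain it was highest in these libraries. Slc38a1, a neutral amino acid transporter that supplies neurons with glutamine, had 277, 311 and 288 CPM in SHR, against 226, 238 and 405 CPM in BNLx and overlapped between strains. The part of cell or region content in the transporter values was not tested.

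Transporters of the ventricles, meninges and barriers also varied between rats. Slc4a5, a bicarbonate transporter of the choroid plexus, had 29.8, 0.616 and 8.61 CPM in SHR, against 28.8, 0.697 and 50.5 CPM in BNLx. Replicate 2 was the lowest library in each strain. Kcnj13, the single listed choroid plexus gene named here, had 23.5, 4.74 and 7.93 CPM in SHR, against 23.1, 3.14 and 22.6 CPM in BNLx, and was also lowest in replicate 2 of each strain. Slc6a13, a GABA transporter of the leptomeninges (GAT-2), had 24.8, 7.49 and 8.98 CPM in SHR, against 5.45, 4.45 and 10.5 CPM in BNLx, with SHR replicate 1 highest. Of the meningeal and fibroblast genes, Ptgds had 1386, 694.9 and 736 CPM in SHR, against 687, 530.3 and 678 CPM in BNLx, and Lum had 10.3, 3.55 and 3.48 CPM in SHR, against 3.35, 1.48 and 5.93 CPM in BNLx. Both were highest in SHR replicate 1, while Dcn was highest in SHR replicate 3, at 22.04 CPM beside 21.2 CPM in replicate 1. Slc16a1, which carries lactate and ketone bodies at the barrier and in oligodendrocytes, had 57.2, 49.1 and 45.9 CPM in SHR, against 55.2, 48.9 and 94.6 CPM in BNLx, with BNLx replicate 3 highest. Slc2a1 (119, 97.02 and 83.7 CPM in SHR, against 93.9, 86.8 and 109.7 CPM in BNLx) and Slc2a3 (134, 168 and 163 CPM in SHR, against 158, 161 and 102 CPM in BNLx) varied less and overlapped between strains, with named transcripts at 20.87% of the Slc2a3 locus.

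Leaving out both libraries changed what passed. They were picked after the data were seen as least like their strain, which lowers the spread within strains. Adjusted p-values of the fit without them, with fewer rats, are therefore no separate support for a locus. With SHR replicate 1 and BNLx replicate 3 removed together, 36 of 120 Slc loci passed an adjusted p of 0.05 with edgeR, against 31.5% of all loci. Of the isoforms, 14 of 295 passed, against 3.88% of all, and 23 of 75 loci differed in usage, against 28.3%. Slc8a1, the sodium-calcium exchanger NCX1, had 15.5, 39.01 and 33.8 CPM in SHR, against 13.3, 14.3 and 37.3 CPM in BNLx, with a log2 fold change of 0.45 over all libraries and 1.41 without both (adjusted p = 0.00133 from edgeR). Slc4a8, a sodium-driven bicarbonate exchanger named here after its values were seen, had 11.98, 54.1 and 43.9 CPM in SHR, against 18.9, 23.01 and 43.2 CPM in BNLx, with log2 fold changes of 0.37 and 1.24 (adjusted p = 0.0035 without both, from edgeR). In each of them BNLx replicate 3 lay within the SHR range. Slc11a1 (adjusted p = 0.00357), Slc7a11 (0.00647), Slc2a10 (0.00814) and Slc38a2 (0.00749) all passed in that edgeR fit. The Slc6a15 and Slc39a3 usage calls held too, with adjusted p of 8.44e-08 and 2.72e-05 from edgeR.

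Genes that work with SLC transporters were described from lists, against 1.02% of all loci called. Of 18 listed ATPase and partner subunits, 7 were named, and none passed. Bsg, the chaperone basigin that brings Slc16a1 to the membrane, had 408.6, 307 and 332 CPM in SHR, against 451, 382 and 364 CPM in BNLx, with overlap. Stk39, a kinase that phosphorylates cation-chloride cotransporters, had 71.5, 62.9 and 63.2 CPM in SHR, against 90.1, 81.7 and 103 CPM in BNLx, without overlap but without passing (log2 fold change -0.48, adjusted p = 0.249 from edgeR). Of 20 relatives under other symbols, 7 were named and none passed. Of 14 ABC transporters, which use ATP in place of ion gradients, 4 were named and 1 passed: Abcg2, the efflux pump of the blood-brain barrier, rose to 13.3 ± 0.68 CPM in SHR, against 5.47 ± 0.23 CPM in BNLx (SD, n = 3 each). Its edgeR log2 fold change was 1.29, its standard error 0.15 and its adjusted p 0.0179.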

How the data were processed

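Whole brain polyA RNA of 3 male SHR and 3 male BNLx rats, 1 ug each, was sequenced as paired reads of 100 bases, with libraries that do not mark strand. The authors trimmed reads with cutadapt, aligned them with HISAT2 to an rn6 genome modified for the strain, and made 1 assembly with StringTie 1.3.5 and Ensembl 99. New 3′ ends came from aptardi 1.0.0, and abundances from RSEM. The authors deposited expected counts, not normalized, for isoforms and loci. The deposited TPM are RSEM's, scaled within a library. Total expected counts were 21745966 to 41333078 in SHR and 11747048 to 32826625 in BNLx.

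Expected counts were rounded to whole numbers, kept with at least 50 counts in 2 of 3 libraries of a strain, scaled by TMM and tested with edgeR 4.0.16 in R 4.3.3 (strain as the only term, two-sided). Loci were called at a Benjamini-Hochberg adjusted p of 0.05, isoforms at an unadjusted p of 0.001 and usage with diffSpliceDGE at an adjusted p of 0.05, each over all features tested. Scripts were tested on simulated data. A fold against a strain at 0 is a bound against 3 counts per library and covers counting error only. Alternatives were DESeq2 1.42.0, other size factors and filters, limma 3.58.1 on log2(TPM + 1) and log2(TPM + 0.1) or on voom weights, the replicate block, leaving out libraries, loci with Slc names alone, and isoforms with the Slc name alone. Libraries were from separate rats, and no 2 agreed within sampling noise.

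The named members are those called for level, isoforms or usage, the highest by TPM in each family with 3 tested loci, up to 5 uncalled loci per direction with separate strains and at least 100 counts, and the listed transmitter, ion, energy and barrier transporters. The members and lists were chosen with earlier results of these data known. Loci that hold several genes, and genes that overlap an antisense neighbour, are uncertain. No rn6 genome was used, so 3′ end signals were not searched. Some members and marker genes chosen by these rules are not reported here.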

Additional observations from a re-analysis of the deposited data

How the results depend on the processing

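With DESeq2, 7 of 125 Slc loci (5.60%, against 3.75% of all loci) and 18 of 319 Slc isoforms (5.64%, against 3.60% of all isoforms) were called. Leaving out SHR replicate 1 and BNLx replicate 3 together was a choice made after the data were seen. It gave calls for 36 loci (31.5% of all), 14 isoforms (3.88% of all) and 23 usage differences (28.3% of all). When 1 library was left out, 0 to 1 Slc loci were called, against 0.14 to 1.06% of all loci. Called Slc isoforms then numbered 5 to 9, against 0.671 to 1.27% of all isoforms. Usage differences numbered 2 to 6 among Slc loci, against 2.96 to 8.48% of all loci. There were 6 without SHR replicate 1 (7.69%, against 8.48% of all) and 6 without BNLx replicate 3 (7.59%, against 7.47%). Where no locus was called, 9 to 19 had an unadjusted p of 0.05 or less (edgeR), against 10.2% of all loci with every library kept. The replicate numbers are shared between strains, and whether same-numbered rats were handled together is not given. Deviations of same-numbered libraries correlated at -0.04, 0.32 and -0.20, the second being the highest of any SHR and BNLx pair. With so few libraries these values cannot decide whether the rats were paired. With the replicate block, 0 loci (edgeR, 0 of all 14471, with 12 Slc loci at an unadjusted p of 0.05 or less), 2 isoforms (0.148% of all) and 2 usage differences (4.06% of all) were called, and not every library correlated best with its own number. Counting isoforms with the Slc name alone reversed Slc6a15, to a log2 fold change of -3.37 (edgeR, adjusted p = 0.00432). The cause was not tested for the other changes. On log2(TPM + 0.1) the median over all isoforms was 0.12, against 0.02 with edgeR. Voom weights gave usage calls in 3 of 79 Slc loci (3.80%, against 2.22% of all). Over the named loci, isoforms and usage tests, 811 values stayed on their side of the threshold, 30 newly passed, 21 no longer passed and 1 reversed with a call. Of the 643 log2 fold changes among them, 45 had the other sign, 44 of these without a call in either fit. Restricted to loci with Slc names alone, 1 of 101 was called, against 1.02% of all loci. The Slc11a1 call rests on 28 to 93 counts in BNLx libraries.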
